A study of Mus musculus with 48 samples.

Results

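Id2, Id3, Tcf3, Tcf4 and Tcf12 encode a family of interacting transcription factors and their inhibitors, and their messenger RNA was followed through naive B cells, germinal center (GC) B cells and plasma cells of mice with and without a c-Rel transgene. The 5 genes were taken as a named list of 20007 genes in the count table, and all 5 were found there. They were chosen by name with earlier results of these data known, and the measured value known to have entered the choice is the lower Id2 level in transgenic plasma cells. That difference is therefore described below without a test. Comparisons of plasma with naive or GC B cells use the same plasma cell libraries, so the Id2 values there are descriptions too. Which other values entered the choice is not recorded, so the adjusted p-values of the other comparisons place the genes among all genes tested and are not independent evidence.

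E proteins are helix-loop-helix factors that pair with each other or with related proteins and bind DNA at E-box sequences. Tcf3 encodes E2A, Tcf4 encodes E2-2 and Tcf12 encodes HEB. Id proteins have the pairing domain but lack the DNA-binding region, so that an E protein held by Id2 or Id3 cannot bind its sites. In the B lineage E proteins are required for the formation of B cells and take part in GC and plasma cell gene programs, and Id3 is known as a restraint on them in mature B cells.

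The mice were immunized with sheep red blood cells, and 3 spleen populations were taken from each of 16 mice, 1000 cells per library. Control mice (8 animals, numbered 1 to 4 and 9 to 12) lacked the transgene, and transgenic mice (8 animals, numbered 5 to 8 and 13 to 16) carried the allele labelled c-RelTG. c-Rel is an NF-kB subunit encoded by Rel. Both genotypes carried 1 further allele, which is not reported here. How the transgene is driven, and in which cells, is not reported here. Naive B cells were sorted as IgDhiIgMlo, GC B cells as B220+IgD-CD38loCD95hiGL7+ and plasma cells as B220loCD138+.

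Libraries held 97993 to 159857 UMIs (unique molecular identifiers, each standing for 1 captured transcript) in naive B cells, 401207 to 695137 in GC B cells and 481229 to 794273 in plasma cells. Rel, the gene of the transgene product, had 12 ± 4.59 CPM in control and 25.8 ± 6.6 CPM in transgenic GC B cells, 0.499 ± 1.41 and 6.55 ± 5.38 CPM in plasma cells, and 30.3 ± 16.3 and 26.3 ± 17 CPM in naive B cells (SD, n = 8 mice each). CPM are UMI counts scaled to 1 common library total, after correction of each total by the TMM method. Immunoglobulin RNA took 50.3 ± 2.06% of UMIs in control and 49.7 ± 1.73% in transgenic plasma cells, and the correction factors averaged 0.527 and 0.553 there, against 1.31 to 1.41 in the other groups. The summed marker genes of each sorted population were highest in that population, at 2888 to 3467 CPM for naive B cell, 1288 to 1513 CPM for GC B cell and 54172 to 148434 CPM for plasma cell markers.

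The start regions of both Id genes are shown because the results turn on their levels and because E-box and NF-kB (kB) motifs are the sequences that E proteins and c-Rel bind. Promoter entries of RefSeq (GRCm38.p6) were used for 4 of the 5 genes, with 6 start sites. Each was searched over 250 bases before the start. The motifs were CANNTG for the E-box and GGGNNNNNCC for kB, on both strands. The first stretch below lies on the minus strand at chr12:25096254-25096342, 250 to 162 bases before the Id2 start, outside annotated exons but within the annotated span of the gene, and its E-box is in capitals. The second is a 30-base stretch on the plus strand at chr4:136143727-136143756, 95 to 66 bases before the Id3 start and inside an annotated exon, and its capitals mark 2 overlapping kB matches.
Id2: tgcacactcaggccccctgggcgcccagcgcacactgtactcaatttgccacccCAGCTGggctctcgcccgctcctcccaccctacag
Id3: agggcgggcgGGGGTGGACCCttggcggtc

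The Id2 window held 1 E-box and 0 kB matches, and the Id3 window 0 E-boxes and 4 kB matches. The Tcf3 window held 1 E-box and 0 kB matches, while the 3 Tcf12 windows held 1, 1 and 0 E-boxes and 1, 3 and 0 kB matches. Tcf4 was left out of the search, so its motifs were not examined. Of 32851 promoter windows of the same length 66.2% held an E-box and 45.8% a kB match, so these letters are common and a match is no more than a description.

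In TMM-corrected CPM Id2 (ENSMUSG00000020644, chromosome 12, 25093799 to 25097140, minus strand, GRCm38) was scarce in naive B cells, intermediate in GC B cells and, in control mice, highest in plasma cells. In bulk RNA, fewer cells of a type and less RNA per cell cannot be told apart. In naive B cells 8 UMIs were found over 8 control libraries and 9 UMIs over 8 transgenic libraries, and 5 and 4 of those libraries held any. Control GC B cells had 15.3, 23.7 and 40.1 CPM as the lowest, median and highest of 8 libraries, and transgenic GC B cells 20.2, 30.3 and 35.1 CPM. The GC ranges of the genotypes lay over each other. Control plasma cells had 36.4, 59.7 and 95.1 CPM and transgenic plasma cells 13.6, 20.8 and 36.3 CPM.

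In order of mean level, control plasma cells stood first for Id2 (64.2 ± 21.9 CPM), followed by transgenic GC B cells (28.9 ± 5.61), control GC B cells (25.9 ± 8.21), transgenic plasma cells (22.2 ± 7.95) and both naive groups (7.19 ± 9.79 transgenic and 7.04 ± 7.62 control, SD, n = 8 mice each). Control plasma cells did not overlap with transgenic GC B cells, the next group. All later neighbours in this order overlapped. The share of all genes without overlap between populations was not counted. In CPM of plain library totals the mean was 33.8 in control plasma cells, against 40.0 in transgenic and 36.4 in control GC B cells.

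Id3 (ENSMUSG00000007872, chromosome 4, 136143497 to 136145755, plus strand) had high levels in both B cell populations and little RNA in plasma cells. Control naive B cells had 239.7, 271 and 352 CPM as the lowest, median and highest library, and transgenic naive B cells 156, 215 and 291 CPM. GC B cells had 187, 239.7 and 309 CPM in controls and 248, 291 and 315 CPM in transgenic mice. Plasma cells of control mice had 7.98, 16.2 and 19.6 CPM and those of transgenic mice 3.41, 12.1 and 17.3 CPM, from 38 and 32 UMIs in all.

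No plasma cell library reached the lowest naive or GC library for Id3. The share of all genes with such a gap between populations was not counted. The means ran from transgenic GC B cells (282 ± 28.0 CPM) over control naive (279 ± 42.0), control GC (240.3 ± 35.1) and transgenic naive B cells (221 ± 48.4) to control (15 ± 4.16) and transgenic plasma cells (11 ± 5.42), and neighbours in this order overlapped except at the step to plasma cells.

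Tcf3 (ENSMUSG00000020167, chromosome 10, 80409514 to 80433647, minus strand), which encodes the E2A proteins E12 and E47, peaked in GC B cells. Its level there was 186, 224 and 247 CPM (lowest, median, highest) in controls and 162, 195 and 222 CPM in transgenic mice. Naive B cells had 77.9, 116 and 216 CPM in controls and 97.3, 117 and 182 CPM in transgenic mice. Plasma cells had 103, 137 and 187 CPM in controls and 126, 161 and 183 CPM in transgenic mice. The ranges of all neighbouring groups overlapped for Tcf3, and the naive libraries, which held 11 to 34 Tcf3 UMIs each, spread most.

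Tcf4 (ENSMUSG00000053477, chromosome 18, 69343356 to 69689079, plus strand), which encodes E2-2, was highest in plasma cells of both genotypes in TMM-corrected CPM. Plasma cells had 128, 168 and 193 CPM in controls and 142, 169 and 227 CPM in transgenic mice. GC B cells had 91.8, 102 and 125 CPM in controls and 76.3, 101 and 118 CPM in transgenic mice. Naive B cells had 42.5, 82.2 and 113 CPM in controls and 41.2, 55.5 and 99.6 CPM in transgenic mice. On this scale every plasma cell library was above every GC or naive library for Tcf4, while the GC and naive ranges overlapped. The share of all genes with such a gap between populations was not counted. In CPM of plain library totals the control and transgenic means were 89.0 and 97.6 in plasma cells. They were 145 and 139 in GC B cells and 115 and 83.7 in naive B cells.

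Tcf12 (ENSMUSG00000032228, chromosome 9, 71842688 to 72111871, minus strand), which encodes HEB, was the least abundant E protein gene. Its means were 36.4 ± 13.7 CPM in control and 44.7 ± 14.9 CPM in transgenic plasma cells, 29.5 ± 18.0 and 20.8 ± 11.9 CPM in naive B cells, and 18.2 ± 6.09 and 13.8 ± 3.75 CPM in GC B cells (SD, n = 8 mice each). All neighbours in this order overlapped. In CPM of plain library totals the naive means, 39.8 in control and 27.3 in transgenic mice, were above the plasma cell means of 19.1 and 24.6. Naive libraries held 0 to 7 Tcf12 UMIs each, and 1 library of each genotype held none.

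**Figure D1:**
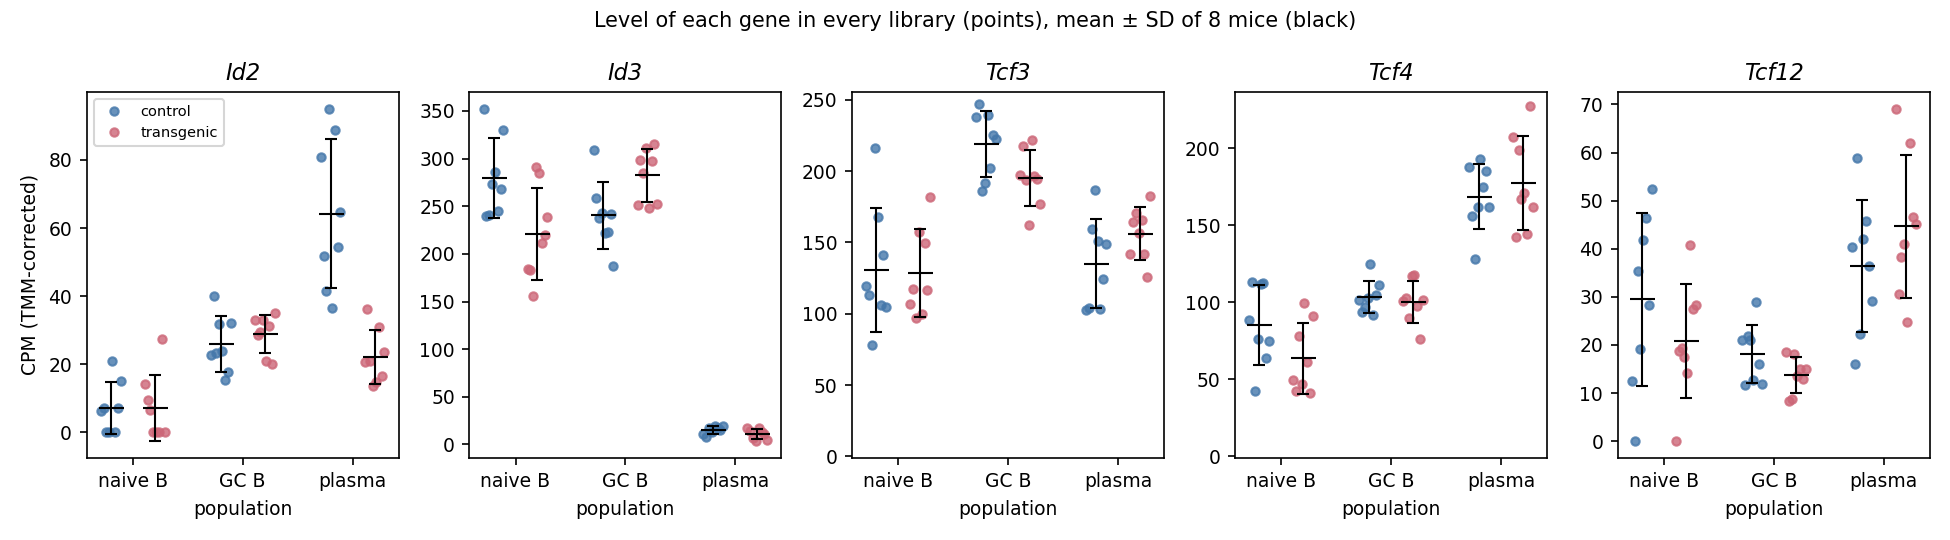
Levels of the 5 genes in every library, in TMM-corrected CPM (1 panel per gene, each with its own axis); points are libraries, black marks are means with SD of 8 mice, blue is control and red is transgenic. Id3 falls to at most 19.6 CPM in plasma cells, Tcf4 is highest there, and Id2 in plasma cells is split by genotype, with 36.4 CPM the lowest control and 36.3 CPM the highest transgenic library.

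Because each UMI stands for 1 molecule tagged near its 3′ end, the shares of the 5 genes in their common UMI total can be set beside each other without division by gene length. Id2 and Id3 together made up 54.1 ± 6.08% of these UMIs in control and 51.8 ± 5.81% in transgenic naive B cells. The share was 43.8 ± 3.41% and 50.1 ± 3.58% in GC B cells, and 18.8 ± 4.12% and 8.11 ± 2.79% in plasma cells (SD, n = 8 mice each). Id3 carried the Id share in naive and GC B cells, with Id2 at 4.27 ± 1.32% in control GC B cells. In control plasma cells Id2 was the larger part, 15.3 ± 4.54% against 3.57 ± 0.897% for Id3, and in transgenic plasma cells they stood at 5.44 ± 2.12% and 2.67 ± 1.33%. These shares contain the Id2 difference that was known when the genes were listed.

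Among the E protein genes alone the leading gene of the group means changed between populations. Tcf3 held 64.2 ± 3.04% of the E protein UMIs of control GC B cells and 63.1 ± 4.35% of transgenic ones. In plasma cells Tcf4 led in the means, at 49.9 ± 6.87% in controls and 46.7 ± 5.25% in transgenic mice, with Tcf3 at 39.5 ± 6.81% and 41.6 ± 6.12%. Tcf3 was ahead of Tcf4 in the plasma cell libraries of control mice 3 and 4 and transgenic mice 6 and 16. Tcf12 stayed at 4.48 to 12.5% of the E protein UMIs in the means of all 6 groups.

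**Figure D2:**
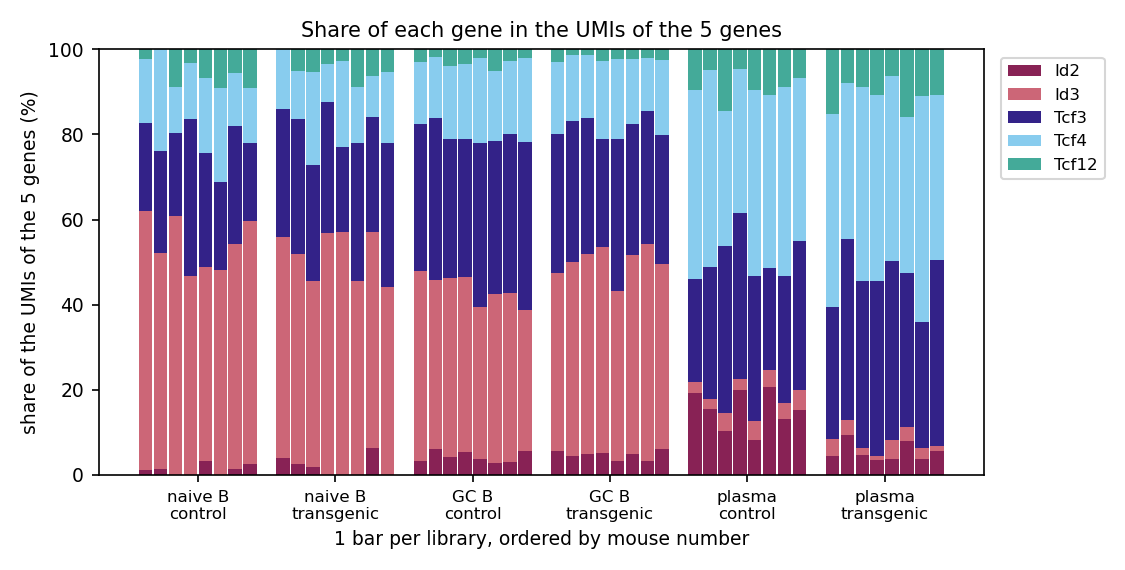
Share of each of the 5 genes in their summed UMIs (percent, vertical axis) for every library, 1 bar per library in order of mouse number within each of 6 groups. The Id genes (dark and light red) take 43.8 to 54.1% of the bar in the group means of naive and GC B cells and 18.8 and 8.11% in plasma cells, where Tcf4 (light blue) has the largest mean share.

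The next comparison asks how the 5 genes differ between stages of B cell differentiation within a genotype, with the 3 populations of 8 mice in 1 edgeR quasi-likelihood fit and Benjamini-Hochberg adjustment over all genes. From GC B cells to plasma cells of control mice all 5 genes were called, 3 higher and 2 lower, where 65.8% of 6503 genes were called (30.4% higher and 35.4% lower). Nothing is read from this count, as it includes Id2, whose plasma cell values entered the choice of the genes. The Id2 value is a description. Id2 rose (log2 fold change 1.30, SE 0.20, adjusted p = 5.34e-09), Tcf4 rose (0.72, SE 0.11, adjusted p = 1.03e-08) and Tcf12 rose (1.04, SE 0.24, adjusted p = 1.00e-04). Id3 fell by the largest amount of the 5 (log2 −3.92, SE 0.16, adjusted p = 2.40e-45), and Tcf3 fell (−0.68, SE 0.11, adjusted p = 5.09e-08). Each of these directions was seen in 8 of 8 control mice when the plasma and GC library of the same mouse were compared.

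In transgenic mice 4 of the 5 genes were called between plasma and GC B cells, 2 higher and 2 lower, where 68.8% of 7016 genes were called (31.2% higher and 37.6% lower). Id3 fell (log2 −4.63, SE 0.17, adjusted p = 1.10e-45), Tcf3 fell (−0.33, SE 0.10, adjusted p = 0.00272), Tcf4 rose (0.80, SE 0.11, adjusted p = 7.36e-10) and Tcf12 rose (1.67, SE 0.22, adjusted p = 9.22e-11). Id2 had a log2 fold change of −0.35 (SE 0.23, adjusted p = 0.165) and was lower in plasma cells in 7 of 8 transgenic mice. In both genotypes the Id2 values here are descriptions, since its plasma cell values entered the choice of the genes. In mice 1 to 8 alone Tcf3 kept its sign without the call (−0.30, adjusted p = 0.0719).

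The step to plasma cells depends on how libraries are scaled. The median log2 fold change of all genes between plasma and GC B cells was −0.09 in control and −0.11 in transgenic mice with TMM, and −1.54 and −1.43 with plain library totals. Id3 and Tcf3 fell under both scalings, but in control mice Tcf4 (log2 −0.74), Tcf12 (−0.41) and Id2 (−0.15) turned negative, and in transgenic mice Tcf4 did (−0.54). Id2 and Tcf12 were then no longer called in control mice (adjusted p = 0.455 and 0.104). In transgenic mice Tcf12 lost its call (0.35, adjusted p = 0.124). There Id2 passed as lower in plasma cells (−1.67, adjusted p = 7.36e-11), a description, since its plasma cell values entered the gene choice. The rises of Tcf4, Tcf12 and Id2 in plasma cells are thus rises relative to the other genes of those libraries. Called genes were 1975 higher and 2302 lower with TMM and 629 higher and 5415 lower without it in control mice, and 2188 and 2637 against 751 and 5657 in transgenic mice.

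From naive to GC B cells 2 of the 5 genes were called in control mice (51.3% of 6503 genes called, 26.6% higher), both higher. These were Id2 (log2 fold change 1.88, SE 0.45, adjusted p = 2.33e-04) and Tcf3 (0.73, SE 0.13, adjusted p = 1.73e-06). In transgenic mice 4 were called, all higher (54% of 7016 genes called, 27.5% higher). Id2 rose by 1.98 (SE 0.42, adjusted p = 2.73e-05), Tcf3 by 0.57 (SE 0.13, adjusted p = 6.30e-05), Tcf4 by 0.65 (SE 0.17, adjusted p = 7.98e-04) and Id3 by 0.33 (SE 0.11, adjusted p = 0.00964) on the log2 scale.

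Id3 went the other way in control mice, with a log2 fold change of −0.23 (SE 0.11, adjusted p = 0.0648). It was lower in the GC library than in the naive library of the same animal in 7 of 8 control mice and higher in 7 of 8 transgenic mice. The Id3 call in transgenic mice was lost without mouse 6 (adjusted p = 0.0524) or mouse 7 (adjusted p = 0.0540), and one in control mice appeared without mouse 2 (adjusted p = 0.0351). Tcf12 was lower in GC B cells without passing the test in either genotype (log2 −0.70, adjusted p = 0.0666, and −0.62, adjusted p = 0.119). It passed in controls without mouse 1, 2 or 4 (adjusted p = 0.0327, 0.0264 and 0.0460) and in transgenic mice without mouse 5 (adjusted p = 0.0293). The naive libraries behind these values held 0 to 7 Tcf12 and 24 to 56 Id3 UMIs each. In mice 9 to 16 alone Id2 in controls (log2 1.09, adjusted p = 0.143) and Tcf4 (0.43, adjusted p = 0.163) and Id3 (0.22, adjusted p = 0.266) in transgenic mice were not called, while Id3 (−0.39, adjusted p = 0.0334) and Tcf12 (−1.32, adjusted p = 0.00677) were called as lower in controls.

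Between naive B cells and plasma cells Id3 fell in control (log2 −4.15, SE 0.18, adjusted p = 6.03e-43) and transgenic mice (−4.30, SE 0.20, adjusted p = 9.44e-37). Id2 rose by 3.17 (SE 0.40, adjusted p = 1.09e-11) and 1.62 (SE 0.46, adjusted p = 0.00178), and Tcf4 by 0.99 (SE 0.16, adjusted p = 2.34e-08) and 1.45 (SE 0.17, adjusted p = 1.12e-12). The Id2 values are descriptions, since those of plasma cells entered the choice of the genes. Tcf12 rose in transgenic mice (1.05, SE 0.30, adjusted p = 0.00211) and had 0.34 in controls (SE 0.31, adjusted p = 0.379). Tcf3 was not called in either genotype (0.05 and 0.24, adjusted p = 0.802 and 0.130), and it passed in transgenic mice without mouse 16 (0.33, adjusted p = 0.0480). Over the list, 3 of 5 genes were called in control and 4 of 5 in transgenic mice, where 52.5 and 54.9% of all genes were. Both counts include Id2, so nothing is read from them. Of all genes 27.1% were higher and 25.4% lower in controls, and 28% higher and 26.9% lower in transgenic mice, and among the 5 the calls were 2 higher and 1 lower, and 3 higher and 1 lower. Called genes were 1764 higher and 1652 lower with TMM and 475 and 5065 without it in controls, and 1966 and 1885 against 591 and 5137 in transgenic mice. With plain library totals the median of all genes was log2 −1.37 in control and −1.23 in transgenic mice. In controls Id2 was then at 1.81 (adjusted p = 1.86e-04), and Tcf4 (−0.40), Tcf3 (−1.34) and Tcf12 (−1.04) were called as lower. In transgenic mice Id2 (0.41, adjusted p = 0.452), Tcf4 (0.21, adjusted p = 0.279) and Tcf12 (−0.18, adjusted p = 0.609) were not called, and Tcf3 was called as lower (−1.0). The Tcf12 rise in transgenic mice was also not called in mice 9 to 16 alone (0.68, adjusted p = 0.163).

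**Figure D3:**
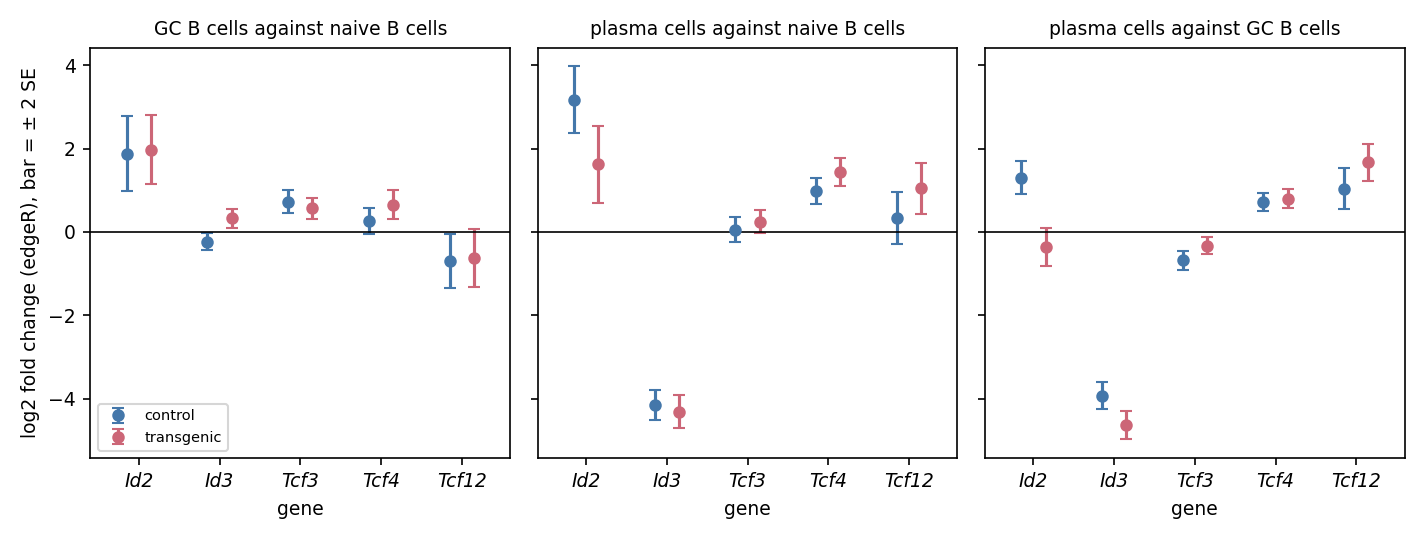
Log2 fold changes of the 5 genes between populations (edgeR, TMM scaling; vertical axis) in control (blue) and transgenic (red) mice, with bars of 2 SE either side, 1 panel per pair of populations. Id3 sits between −4.63 and −3.92 in both plasma cell panels, and Id2 between plasma and GC B cells is at 1.30 in control and −0.35 in transgenic mice.

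The genotype comparison asks whether the transgene moved the 5 genes within a population, with 8 libraries per genotype. In plasma cells Id2 was lower in transgenic mice by a log2 fold change of −1.50 (SE 0.23), from 159 UMIs (95% exact Poisson interval 135 to 186) in controls to 65 UMIs (50.2 to 82.8) in transgenic mice. These intervals cover counting error only. All 8 control libraries lay above all 8 transgenic ones in TMM-corrected CPM, where 0.926% of the 4538 genes tested in plasma cells had groups that did not overlap. The gap was small, 36.4 against 36.3 CPM, and in CPM of plain library totals the groups met, with 19.9 CPM the lowest control and 20.6 CPM the highest transgenic value. The Id2 difference ranked as number 19 of 4538 genes by size. It was −1.63 to −1.39 when any 1 of the 16 mice was left out. In mice 1 to 8 the means were 67.4 and 22.9 CPM, and in mice 9 to 16 they were 61.1 and 21.5 CPM. As this difference entered the choice of the genes, its rank, its lack of overlap and its repeat in subsets are descriptions, not support.

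In GC B cells Id2 did not pass the test between genotypes (log2 0.12, SE 0.18, adjusted p = 0.756), and an interval of 2 SE ran from −0.24 to 0.48. In naive B cells, where Id2 was below the expression filter, the exact permutation test on 8 and 9 UMIs gave p = 0.989, and a difference was not detectable at this depth.

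Id3 was lower in transgenic naive B cells and higher in transgenic GC B cells, and neither difference passed over all genes. The log2 fold changes were −0.36 (SE 0.13, adjusted p = 0.161) and 0.22 (SE 0.08, adjusted p = 0.0722). The ranges of the genotypes overlapped in both populations. Without control mouse 1 or transgenic mouse 13 the GC difference passed (log2 0.28, adjusted p = 0.0153, and 0.25, adjusted p = 0.0441). In plasma cells Id3 was below the filter, with CPM of the plain library total of 7.91 ± 2.11 in control and 6.03 ± 2.90 in transgenic mice (SD, n = 8 mice each). The exact two-sided permutation test gave p = 0.158, and 0.317 after adjustment over 4 tests.

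None of the 3 E protein genes was called in any population. Tcf3 had log2 fold changes of −0.05 in naive B cells, −0.18 in GC B cells and 0.19 in plasma cells (SE 0.17, 0.08 and 0.13, adjusted p = 0.965, 0.138 and 0.425). Tcf4 had −0.46, −0.06 and 0.05 (SE 0.22, 0.10 and 0.11, adjusted p = 0.424, 0.785 and 0.876). Tcf12 was tested by edgeR in plasma cells, at 0.27 (SE 0.22, adjusted p = 0.583). The exact permutation test for the populations in which Tcf12 was below the filter gave p = 0.240 in naive and p = 0.0898 in GC B cells (adjusted p = 0.320 and 0.317 over 4 tests). Intervals of 2 SE for Tcf4 ran from −0.25 to 0.14 in GC B cells and from −0.18 to 0.28 in plasma cells, and in naive B cells from −0.91 to −0.01.

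Counted over the list, 0 of 3 tested genes were called in naive B cells (1.13% of 2131 genes called), 0 of 4 in GC B cells (7.68% of 6393) and 1 of 4 in plasma cells (6.35% of 4538, and 4.03% lower). The 1 gene is Id2 in the comparison that entered the choice of the genes, so nothing is read from that count. At an unadjusted p under 0.05 were 242, 1393 and 846 of all genes. The count in GC B cells was 1, Id3, with no expression filter (log2 0.25, adjusted p = 0.0382). In plasma cells 105 genes were higher and 183 lower in transgenic mice with TMM, and 180 higher and 104 lower with plain library totals.

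**Figure D4:**
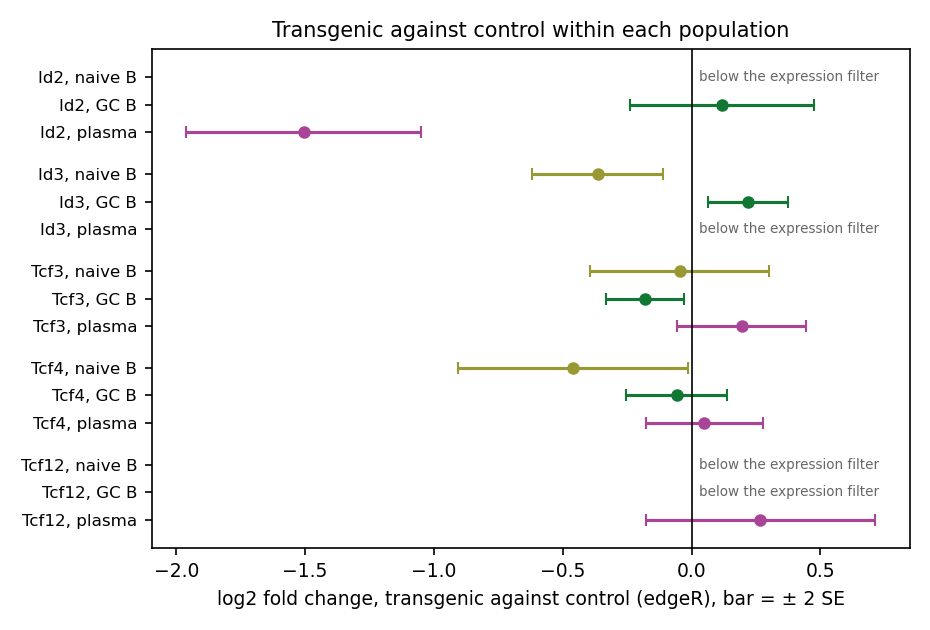
Log2 fold change of transgenic against control mice (edgeR, horizontal axis) for each gene in each population, with bars of 2 SE either side; 4 pairs of gene and population were below the expression filter. Id2 in plasma cells, at −1.50, lies apart from the other 10 values, which run from −0.46 to 0.27.

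Whether a genotype difference itself changed between populations was tested as a contrast in a fit of all 48 libraries. For Id2 the effect in plasma cells minus that in GC B cells was log2 −1.63 (SE 0.31), which contains the difference known beforehand and is given as a description. Within mice, Id2 was higher in the plasma than in the GC library in 8 of 8 control mice and in 1 of 8 transgenic mice. The difference was −1.60 in mice 1 to 8 alone and −1.68 in mice 9 to 16 alone, and it was not called in either set of 8 mice. The count of called genes was 1 of 5, Id2 itself, where 1.58% of 7744 genes were called (1.05% lower), and nothing is read from it because the contrast contains the value known beforehand. Called genes there were 41 higher and 81 lower with TMM and 94 higher and 52 lower with plain library totals.

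For Id3 the effect in GC B cells minus that in naive B cells was log2 0.58 (SE 0.15, adjusted p = 0.0868), and 0 of 5 genes were called where 0.129% of 7744 genes were. It ranked as number 21 of 7744 genes by p, and it passed without mouse 8 (log2 0.63, adjusted p = 0.0392) and with DESeq2 (log2 0.56, adjusted p = 0.0480). Between plasma and naive B cells 0 of 5 were called, where 1.16% of genes were, 12 higher and 78 lower with TMM and 15 higher and 44 lower without it. For the E protein genes no difference of effects passed (lowest adjusted p = 0.248, Tcf3 between plasma and GC B cells, log2 0.37).

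**Figure D5:**
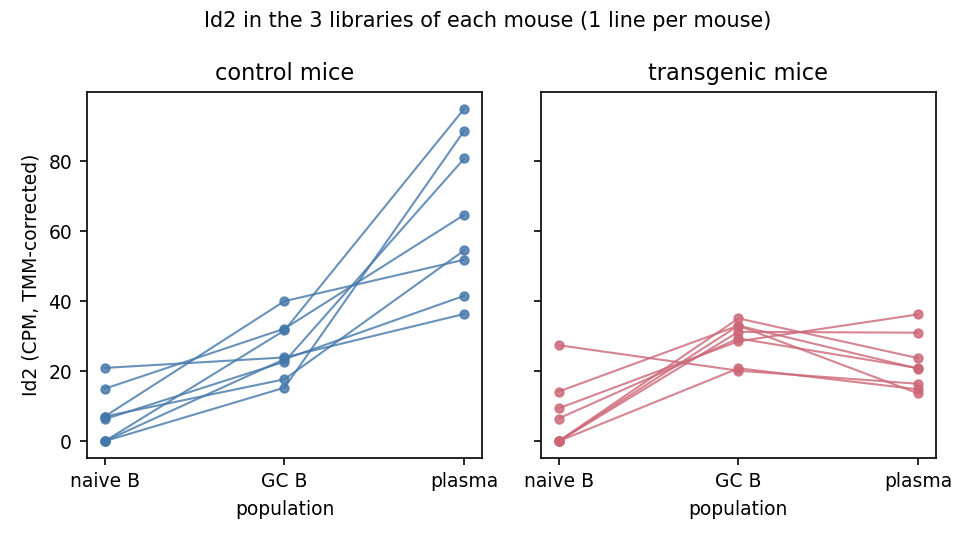
Id2 (TMM-corrected CPM, vertical axis) in the naive, GC and plasma cell library of each mouse, 1 line per mouse, with control mice on the left and transgenic mice on the right. Lines rise from GC to plasma cells in 8 of 8 control mice and in 1 of 8 transgenic mice.

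Id2 is also transcribed in T, NK and innate lymphoid cells, so their markers were measured in the plasma cell libraries. The 9 T cell markers summed to 190 to 298 CPM in control and 123 to 274 CPM in transgenic plasma cells, and most came from Cd28 (149.8 ± 23.2 and 166.6 ± 42.3 CPM), which plasma cells also transcribe. Without Cd28 the sums were 58.8 to 121 CPM (median 95) and 21.4 to 66.5 CPM (median 35.6). Thy1, singled out after its values were seen, had 45.5 ± 11.3 and 9.58 ± 5.16 CPM, and Trac, the constant gene of the T cell receptor, had 3 and 0 UMIs over 8 libraries each. The 10 NK and innate lymphoid markers summed to 16.2 to 51.9 CPM (median 35.6) in control and 8.37 to 34.6 CPM (median 22.8) in transgenic plasma cells. Medians of the naive and GC groups were 0 to 3.15 CPM. In each plasma cell group 8 of the 10 markers were detected. The highest mean was that of Il7r in controls (6.68 CPM) and of Prf1 in transgenic mice (5.44 CPM). Klre1 was at 0 in both groups, Klrd1 at 0 in controls and Ncr1 at 0 in transgenic mice. In the group in which Id2 was lower, the T cell sum without Cd28 and the NK and innate lymphoid sum had the lower medians. The ranges of the genotypes overlapped for both sums. Thy1 had the lower mean in that group and Cd28 the higher mean. The part of these markers in the Id2 difference was not tested.

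Plasma cell markers also moved with genotype, at 91570 to 148434 CPM in control and 54172 to 104772 CPM in transgenic plasma cells, mostly Jchain (mean 104296 and 71165 CPM). The library of transgenic mouse 15 held 301 CPM of neutrophil markers and that of control mouse 1 held 1084 CPM of erythroid and platelet markers. Without mouse 15 the Id2 difference was log2 −1.44, and without mouse 1 it was −1.45.

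Further genes of the pathway were followed as lists. The lists were drawn up with earlier results of these data known, so their counts are descriptions. Id1, the other Id gene of the table, had 0, 6 and 8 UMIs over the 16 naive, GC and plasma cell libraries, and Id4 was not analysed here. Of 8 tested partners and cofactors of E proteins, 0 rose and 2 fell in transgenic GC B cells, where 7.68% of all genes were called (list median log2 −0.21, median of all genes −0.0023). Lmo2, a bridging protein of helix-loop-helix complexes, fell from 32.4 ± 11.7 to 16.2 ± 6.0 CPM (log2 −1.0, SE 0.22, adjusted p = 0.00230). Lyl1, a helix-loop-helix partner of E proteins, fell from 263 ± 21.3 to 221 ± 17.7 CPM (log2 −0.26, SE 0.07, adjusted p = 0.0118). None of 3 partners was called in naive B cells and none of 5 in plasma cells. In mice 1 to 8 alone neither Lmo2 (adjusted p = 0.304) nor Lyl1 (adjusted p = 0.331) was called. Lyl1 was also not called in mice 9 to 16 alone (adjusted p = 0.0996), without the expression filter (0.0586) or in the fit of all 48 libraries (0.0782).

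Genes of the B lineage known as E protein targets were compared between genotypes as 1 such list, chosen with earlier results known. In transgenic GC B cells 0 of 14 rose and 6 fell (list median −0.19). Of all 6393 genes 7.68% were called there, 229 higher and 262 lower. Foxo1, a factor of B cell development and of the GC dark zone, fell from 115 ± 12.9 to 85.0 ± 13.1 CPM (log2 −0.45, SE 0.10, adjusted p = 0.00261). Cd79a, a signaling chain of the B cell receptor, fell from 1299.9 ± 115 to 1001 ± 161 CPM (log2 −0.39, SE 0.09, adjusted p = 0.00924). Blk, a kinase of that receptor, had log2 −0.46 (SE 0.13, adjusted p = 0.0286), and its call was lost in 9 of the 16 fits without 1 mouse (adjusted p from 0.0506 to 0.0647; mice 2, 3, 5, 6, 7, 10, 11, 13 and 16). Neither Blk (adjusted p = 0.136 and 0.0688) nor Foxo1 (0.0759 and 0.145) was called in mice 1 to 8 or in mice 9 to 16 alone.

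In plasma cells 0 of 12 targets rose and 3 fell, where 6.35% of all genes were called and 4.03% were lower (list median −0.10, median of all genes 0.0022). Pou2af1, a B cell coactivator, fell from 1471 ± 136 to 1165 ± 160 CPM (log2 −0.35, SE 0.07, adjusted p = 0.00117), and Cd79a from 1102 ± 162 to 851 ± 117 CPM (log2 −0.39, SE 0.08, adjusted p = 0.00231). Blk fell (log2 −0.78, SE 0.22, adjusted p = 0.0215) and was not called without mouse 4, 6, 10 or 16 (adjusted p from 0.0542 to 0.0937), with DESeq2 (0.0516) or without the filter (0.0558). In mice 1 to 8 alone Pou2af1, Cd79a and Blk were not called (adjusted p = 0.109, 0.197 and 0.348), nor were Pou2af1 and Blk in mice 9 to 16 alone (0.0778 and 0.249). In naive B cells Vpreb3, a chain that associates with the pre-B cell receptor, was the 1 gene of 11 to pass (log2 −0.62, SE 0.16, adjusted p = 0.0199; list median −0.10), where 1.13% of all genes were called. Vpreb3 was not called without mouse 4, 5, 6, 8, 11, 15 or 16 (adjusted p from 0.0503 to 0.179), with DESeq2 (0.132), in the fit of all 48 libraries (0.152) or in mice 1 to 8 or 9 to 16 alone (0.762 and 0.156).

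Among other factors that bind E-boxes, 1 of 5 rose and 1 fell in transgenic GC B cells, where 7.68% of all genes were called. Myc went from 51.3 ± 14.7 to 91.6 ± 22.6 CPM (log2 0.81, SE 0.16, adjusted p = 0.00144), and Mxd4, an antagonist of Myc at E-boxes, from 54.0 ± 10.9 to 33.2 ± 7.57 CPM (log2 −0.70, SE 0.15, adjusted p = 0.00181). Mxd4 was not called in mice 1 to 8 or 9 to 16 alone (adjusted p = 0.103 and 0.0783). None of 3 was called in naive B cells or in plasma cells. Of the genes that act upstream of Id genes in TGF-beta, BMP and Egr signaling, 0 of 6 were called in GC B cells and 0 of 1 in naive B cells, and the other members were below the filter.

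Between GC B cells and plasma cells most genes of the table were called, 30.4% higher and 35.4% lower in control and 31.2% higher and 37.6% lower in transgenic mice, and the lists are read against these shares. Of 15 targets 3 rose and 8 fell in control mice (73.3% of the list called), and 3 rose and 9 fell in transgenic mice (80% called), near the 65.8 and 68.8% of all genes. Prdm1, which directs plasma cell formation, rose by log2 5.22 and 4.69 (adjusted p = 7.48e-38 and 2.39e-32), and Spib, a B cell factor, had −5.63 and −5.28 (adjusted p = 6.41e-72 and 2.37e-57). Of 8 partners 1 rose and 5 fell in control and 1 rose and 3 fell in transgenic mice. The corepressor gene Cbfa2t3 was the partner that rose (log2 0.88 and 1.5, adjusted p = 4.61e-08 and 1.33e-16), although with plain library totals it was negative in controls (−0.58) and not called in transgenic mice (0.17, adjusted p = 0.237). Lmo2 fell (−3.34 and −1.33, adjusted p = 1.62e-10 and 7.11e-04). Of 6 upstream regulators 1 rose and 4 fell in control and 1 rose and 5 fell in transgenic mice, with Egr1 at −2.79 and −2.28 (adjusted p = 9.10e-13 and 5.81e-07).

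The genes whose levels followed the members most closely were found by Pearson correlation of log2 CPM over the 48 libraries, among 5637 genes with at least 20 CPM on average. The points share populations and mice, so the values are descriptions. Id2 was followed by Rgcc (r = 0.81) and Eaf2 (0.78), and Id3 by Ms4a1, Actr3 and Lcp1 (0.98, 0.97 and 0.97). Tcf3 was closest to Ncapg (0.80), Tubb4b-ps1 (0.79) and Mcm2 (0.77), and Tcf4 to Atf5 (0.86), Rap1a (0.85) and Adk (0.85). For Tcf12 the closest were Ptpre (0.71), Tulp3 (0.70) and Tcirg1 (0.68). Rgcc shared with Id2 a lower mean in transgenic plasma cells (7.67 against 8.71 log2 CPM in controls), whereas Eaf2 stood at 8.13 and 8.04 log2 CPM in transgenic and control plasma cells. Between the members themselves the strongest relation was Id3 with Tcf4 (r = −0.74), followed by Id2 with Tcf4 (0.54) and Id3 with Tcf12 (−0.51).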

How the data were processed

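The libraries were bulk SCRB-seq, a 3′ tag method with UMIs, per the labels' protocols. The authors deposited 1 table of raw UMI counts for 48 libraries, used here without change. The submitters' processing notes name STAR and the build GRCm38.p5. The sources used here do not give the STAR version, annotation release, strand use or UMI collapsing. GENCODE M21 named 19701 of 20007 genes, and the 306 others held 0.424% of UMIs.

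Tests used edgeR 4.0.16 in R 4.3.3 (TMM, filterByExpr, robust quasi-likelihood fit, Benjamini-Hochberg threshold 0.05 over all genes tested). Only the genotype fits within each population were tested on simulated data with known changes, with the same spread set for every gene. The fits across populations and of all 48 libraries were not simulated. For 4 pairs of member and population below the filter, genotypes were permuted over all 12870 splits of 8 against 8 mice, two-sided, on CPM of the library total. Levels are CPM with TMM over all 48 libraries; log2 CPM for correlations used a prior count of 2. Within groups 0 pairs of libraries were identical. The labels give 1 animal number to the 3 libraries of a mouse, so numbers pair populations. Deviations from group means correlated weakly within mice (median r 0.0167 for GC with naive, 0.0350 for plasma with GC and 0.0190 for plasma with naive cells). Genotypes share no mouse.

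The 5 genes, lists and tests were chosen with earlier results of these data known. Alternatives were DESeq2 1.42.0, library totals without TMM, no immunoglobulin genes, no expression filter, each mouse left out, mice 1 to 8 or 9 to 16 alone, a mouse block and 1 fit of all libraries. Besides the members, up to 4 called genes per list and comparison with the largest change could be named, and up to 3 correlated genes per member. Some genes that these rules would name are not reported here.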

Additional observations from a re-analysis of the deposited data

Results flagged for a closer look

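The genotype difference of Id2 was not the same in plasma cells as in GC B cells. The difference between both effects was log2 −1.63 (SE 0.31), with −1.50 in plasma cells and 0.12 in GC B cells from the fits within each population. It is listed as a difference between populations in the effect of genotype, and as a description, since its plasma cell part was known when the genes were listed. In transgenic plasma cells lower medians were seen for the plasma cell, T cell (without Cd28) and NK and innate lymphoid marker sums. The ranges of the genotypes overlapped for each sum. Cd28, the most abundant T cell marker and also transcribed by plasma cells, had 166.6 CPM there against 149.8 CPM in controls. The part of these markers was not tested. No library of the 30 sets of gene and group lay far enough from the other 7 to pass Dixon's limit of 0.526, a limit that chance alone passes in about 1 set of 20.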

How the results depend on the processing

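Scaling without TMM changed the number of members called from 3 to 5 (plasma against naive, control), from 4 to 2 (the same, transgenic) and from 5 to 3 (plasma against GC, control). Signs turned there for Tcf3 (−1.34), Tcf4 (−0.40) and Tcf12 (−1.04) in the first, Tcf3 (−1.0) and Tcf12 (−0.18) in the second, Id2 (−0.15), Tcf4 (−0.74), Tcf12 (−0.41) and Cbfa2t3 (−0.58) in the third, Tcf4 (−0.54) for plasma against GC in transgenic mice and Id3 (0.0057) for the plasma minus naive difference of effects. Leaving out immunoglobulin genes gave 4 in place of 2 for GC against naive in controls and Tcf3 at −0.0088 for plasma against naive. No expression filter gave 1 in place of 0 for the transgene in GC B cells, and DESeq2 1 in place of 0 for the GC minus naive difference. DESeq2 gave Id2 no adjusted p in the differences of effects (log2 −1.64 for plasma minus GC). Mice 9 to 16 alone gave 2 in place of 4 for GC against naive in transgenic mice, Tcf3 0.061 in naive B cells, Tcf4 −0.029 in plasma cells and Tcf12 −0.13 for plasma against naive in controls. Mice 1 to 8 alone gave Tcf4 0.034 in GC B cells, Tcf12 0.19 for GC against naive in controls, Id2 −1.02 and Tcf12 −0.34 for the GC minus naive difference, Id3 0.18 for plasma minus naive and Id2 5.36 CPM in naive B cells. With all 16 mice the Id2 difference in naive B cells was 0.147 CPM on the TMM scale. Both sets of mice alone called 0 in place of 1 for plasma minus GC. The cause was not tested.

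With 1 mouse left out, members called ranged from 2 to 4 and 3 to 5 for GC against naive (control, transgenic), 3 to 3 and 4 to 5 for plasma against naive, 5 to 5 and 4 to 4 for plasma against GC, 0 to 0, 0 to 1 and 1 to 1 for the transgene in naive, GC and plasma cells, and 0 to 1, 0 to 0 and 1 to 1 for the GC minus naive, plasma minus naive and plasma minus GC differences. Signs varied for the GC minus naive difference of Id2 (−0.37 to 0.80) and Tcf12 (−0.16 to 0.25), the plasma minus naive difference of Id3 (−0.24 to 0.074), the plasma minus GC difference of Tcf4 (−0.012 to 0.15), Tcf3 in plasma against naive (−0.061 to 0.11), the transgene effects on Tcf3 in naive (−0.14 to 0.094) and Tcf4 in plasma cells (−0.0076 to 0.092), and naive Id2 (−3.85 to 2.59 CPM). With mouse number as a replicate block no count or call of the members changed: Id2 in plasma against GC B cells of control mice had log2 1.31. Naive libraries, the shallowest, limit Id2 and Tcf12 most.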

Other observations

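Among the other genes of the pathway, Mxd4, an antagonist of Myc at E-boxes, had the difference of genotype effects with the lowest adjusted p among those called. Its effect in plasma cells minus that in GC B cells was log2 0.90 (SE 0.18, adjusted p = 4.09e-04), and its mean fell from 54.0 to 33.2 CPM in GC B cells while it was 231 CPM in control and 269.9 CPM in transgenic plasma cells. In mice 1 to 8 and in mice 9 to 16 alone the value was 0.89 and 0.91 (adjusted p = 0.132 and 0.0823). It was the 1 gene of 8 E-box binding factors called there, and 2 of 16 E protein targets were called, both higher, where 1.58% of all genes were called. These were Vpreb3 (log2 0.70, SE 0.19, adjusted p = 0.0265) and Cd79b (0.38, SE 0.10, adjusted p = 0.0224), a signaling chain of the B cell receptor. Vpreb3 was not called without mouse 2, 3, 5, 9, 12 or 15, nor Cd79b without mouse 1, 3, 5, 6, 13 or 16. Over all 22 alternative settings each of these genes lost its call in 8. None of 8 partners of E proteins and none of 8 upstream regulators was called in that contrast. In the effect in plasma cells minus that in naive B cells, 1 of 16 targets was higher and 3 were lower, where 1.16% of all genes were called. Vpreb3 was higher (log2 0.99, adjusted p = 0.00671), and Pou2af1 (−0.49, adjusted p = 0.0119), Xbp1 (−0.84, adjusted p = 0.0307) and Blk (−0.89, adjusted p = 0.0488) were lower. With plain library totals Pou2af1, Xbp1 and Blk were not called (adjusted p = 0.0937, 0.0678 and 0.136). With mouse number as a replicate block Xbp1 and Blk were not called (adjusted p = 0.0774 and 0.0589). Of these 4 genes none was called in mice 1 to 8 or in mice 9 to 16 alone. Pou2af1 was not called without mouse 10 or 11, Xbp1 without mouse 1, 2, 6, 9, 10, 11, 15 or 16, and Blk without mouse 1, 2, 3, 4, 5, 6, 8, 9, 10, 13 or 16. Over all 23 alternative settings Xbp1 lost its call in 13 and Blk in 18. Bhlhe40, the 1 of 8 E-box binding factors called there, was lower (−3.57, adjusted p = 0.00488), and it was not called in mice 1 to 8 alone (adjusted p = 0.308).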
